A study of Mus musculus with 9 samples.

Results

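The promoters described here are those on which neither H3K27ac nor H3K4me1 was called in primary muscle cells of the WT mouse oviduct at D2 of pregnancy. A protein-coding gene on chromosomes 1 to 19 was a member when no peak of any of 8 lists overlapped a promoter window, which ran 1 kb to either side of each start of its protein-coding transcripts. There were 6179 members among 20722 genes, or 29.8%, with 11158 of the 52092 start sites. These genes were chosen by the peak calls at their promoters, so the lack of a promoter peak is not itself a result about them.

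The lists came from ChIC-Seq, in which an antibody brings MNase fused to protein A to its target so that the chromatin around it is cut out and sequenced. All 9 samples were of WT genotype and D2 of pregnancy, from mice of 8 to 12 weeks, with 3 samples each for H3K27ac, H3K4me1 and IgG. The cells were digested from whole oviduct, filtered, kept in a dish for some hours and fixed, without a sort for a cell type, and the labels do not say that the replicates came from separate animals. Each replicate of a mark had its own list, each mark had a further list called on its 3 replicates pooled, and the IgG libraries served as the controls of these calls. Of 12 smooth muscle marker genes 0 were members. A promoter peak was in all 8 lists for 7 of them, among them Acta2, the smooth muscle actin, in 7 lists for Tagln, in 4 for Mylk, in 3 each for Myh11, the smooth muscle myosin, and Cnn1, and in 2 for Lmod1.

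H3K27ac marks active promoters and enhancers, and H3K4me1 marks enhancers whether or not they are active. A promoter without either mark is usually one of a gene that the tissue does not use. In mammals such genes fall into a few kinds, among them the large sensory receptor families that lie in arrays of gene copies, genes of other tissues whose promoters hold few CpG dinucleotides, and developmental regulators whose CpG-rich promoters are kept silent by Polycomb proteins, which neither antibody used here reads.

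The members' promoters ranged from sequences with no CpG at all to dense CpG islands, and 6 of them show that range. The sequences are the 250 bases before the start in the RefSeq promoter table of build GRCm38.p6, which matched 3738 of the 6179 members with a start within 50 bases of a start used here. CpG dinucleotides are in capitals. Cga and Ins1 had the fewest CpGs, and Fmnl2 and Hoxa5 the highest CpG ratio, among 82 named members with a sequence in the table and largely unique windows. Olfr770, from a run of 45 neighbouring members on chromosome 10, and Ckm, a skeletal muscle gene, were added after their values were seen.
Cga: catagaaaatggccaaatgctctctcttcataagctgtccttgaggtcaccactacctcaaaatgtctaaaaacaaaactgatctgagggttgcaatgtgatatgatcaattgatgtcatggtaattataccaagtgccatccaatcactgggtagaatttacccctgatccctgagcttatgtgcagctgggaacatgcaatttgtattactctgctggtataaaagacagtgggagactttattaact
Ins1: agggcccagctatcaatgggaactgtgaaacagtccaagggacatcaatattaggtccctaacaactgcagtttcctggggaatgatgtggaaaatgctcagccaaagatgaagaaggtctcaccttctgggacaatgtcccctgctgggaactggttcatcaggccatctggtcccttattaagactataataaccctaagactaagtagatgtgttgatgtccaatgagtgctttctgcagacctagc
Olfr770: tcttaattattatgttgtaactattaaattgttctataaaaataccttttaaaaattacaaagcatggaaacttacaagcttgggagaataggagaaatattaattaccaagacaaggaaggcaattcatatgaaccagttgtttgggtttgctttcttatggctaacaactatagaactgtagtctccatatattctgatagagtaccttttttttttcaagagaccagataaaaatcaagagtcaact
Ckm: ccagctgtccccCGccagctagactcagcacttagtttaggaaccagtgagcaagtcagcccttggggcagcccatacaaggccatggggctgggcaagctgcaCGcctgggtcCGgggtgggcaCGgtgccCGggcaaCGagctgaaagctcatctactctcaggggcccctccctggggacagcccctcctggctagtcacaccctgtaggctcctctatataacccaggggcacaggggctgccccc
Fmnl2: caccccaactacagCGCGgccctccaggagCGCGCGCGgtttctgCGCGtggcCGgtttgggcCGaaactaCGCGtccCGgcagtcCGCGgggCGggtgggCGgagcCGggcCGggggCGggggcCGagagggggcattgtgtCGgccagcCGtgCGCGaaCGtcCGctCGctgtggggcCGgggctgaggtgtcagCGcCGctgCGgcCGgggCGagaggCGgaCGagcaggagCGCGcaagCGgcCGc
Hoxa5: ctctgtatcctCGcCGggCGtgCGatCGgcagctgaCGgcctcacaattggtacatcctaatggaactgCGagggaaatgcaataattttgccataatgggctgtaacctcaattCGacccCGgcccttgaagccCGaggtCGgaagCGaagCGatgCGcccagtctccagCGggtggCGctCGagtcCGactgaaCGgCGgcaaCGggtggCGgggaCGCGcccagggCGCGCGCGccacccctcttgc

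Cga, at chr4:34893529-34893778 on the plus strand, encodes the alpha subunit shared by the pituitary and placental glycoprotein hormones, and Ins1, at chr19:52264047-52264296 on the plus strand, encodes insulin. Neither held a CpG in these 250 bases, and Cga held TATAAA with its first base at position -30 from the start. Olfr770, at chr10:129133767-129134016 on the minus strand, is an olfactory receptor gene, and its 250 bases also held 0 CpGs at a GC content of 29.6%. Ckm, at chr7:19410844-19411093 on the plus strand, encodes the creatine kinase of skeletal and heart muscle and had 6 CpGs at a GC content of 64.8%. Fmnl2, at chr2:52857618-52857867 on the plus strand, encodes a formin that assembles actin filaments and had 40 CpGs, with 77.6% GC. Hoxa5, at chr6:52204588-52204837 on the minus strand, encodes a homeobox factor of body patterning and had 28 CpGs.

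Over the 3738 matched members the median was 2.00 CpGs in these 250 bases, beside 17.0 in 3543 matched genes with a promoter peak in all 8 lists and 11.0 in all 13509 matched genes. Short motifs, searched on both strands, differed with it. TATAAA, the core of the TATA box, was in 23.2% of the matched members and 12.2% of all matched promoters. GGGCGG, the GC box read by Sp factors, was in 16.3% of members and 45.0% of all. CCAAT was in 36.1% of both. Among member olfactory and vomeronasal receptors TATAAA was in 39.3% and GGGCGG in 0.227%, whereas among members with CpG-rich promoters these shares were 5.03% and 62.5%. A match is a description of the letters and not a binding site.

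The 6 replicate calls had 40551842 to 78891920 treatment fragments and 3110985 to 3713369 IgG fragments, and gave 91900 to 148579 autosomal peaks covering 3.62% to 5.72% of the 19 chromosomes. H3K27ac replicate 1 had the most peaks and was the only replicate list called against IgG replicate 1. The other lists shared IgG libraries across marks, so they are not independent of each other. The lists give regions and not counts per promoter, so no counting interval can be set on a promoter without a peak, and a weak mark under the calling threshold would not be seen. In cells taken in bulk, a mark held by few cells and a weak mark in all cells cannot be told apart.

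Most genes lay at either end of the number of lists with a promoter peak. Beside the 6179 genes with none, 5142 genes, or 24.8%, had a peak in all 8 lists, and 1216 genes had one in exactly 1 list. Of those 1216 genes, 366 had it in H3K27ac replicate 1 alone and 249 in the pooled H3K4me1 list alone. The edge of the window separated members from these genes by a few bases. The nearest peak lay 1001 bp from the start of Neu2, which encodes a sialidase, 1004 bp from Vinac1, 1006 bp from Tmprss13, a membrane serine protease, 1009 bp from Aldh1a7, an aldehyde dehydrogenase, and 1010 bp from Runx3, a transcription factor of blood and neurons, each in 1 list. On the other side, the nearest peak lay 1000 bp from Abca12, which carries lipids in skin, and Gstp3, a glutathione transferase, and 999 bp from Ankrd22, Hoxd12 and Spag11b, again in 1 list each.

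Most members had promoters poor in CpG. A promoter was called CpG-rich when a stretch of 500 bases in its windows had a ratio of observed to expected CpG above 0.75 and a GC content above 55%. By this rule 802 members, or 13.0%, were CpG-rich, beside 54.0% of all genes, 27% of genes with a peak in exactly 1 list and 81.8% of genes with a peak in all 8. The highest CpG ratio in the windows had a median of 0.375 in members, 0.516 in genes of 1 list and 0.947 in genes of 8 lists. Read the other way, 7.17% of the 11191 CpG-rich genes and 56.4% of the 9531 other genes were members. Members were also shorter, with a median gene length of 8094 bp against 23602 bp in the other genes, and had fewer starts. Of the 7648 genes with a single start 40.8% were members, and of the 1502 genes with 6 or more starts, which had more windows in which a peak could fall, 5.86%.

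**Figure D1:**
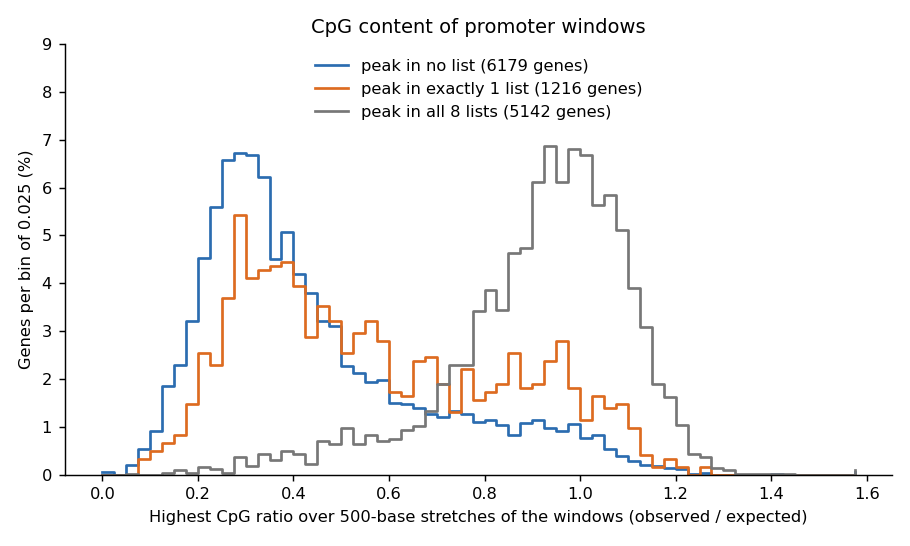
Distribution of the highest CpG ratio over 500-base stretches of the promoter windows (x axis, observed over expected), as the percentage of genes per bin of 0.025 (y axis), for genes with a promoter peak in no list, in exactly 1 list and in all 8 lists. The 6179 members crowd at low ratios, with a median of 0.375 and a tail to high ratios, while the 5142 genes with a peak in every list centre on 0.947.

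Family names covered 2470 members, or 40.0%. A further 1068 members, or 17.3%, had names given to predicted models, and 2641 were in neither group. Of the 1689 genes with such model names 63.2% were members. Among 40 families of at least 20 genes, 31 had a larger share of members than the 29.8% of all genes, and 15 had at least 70%. The families were chosen with earlier results known, and the shares are descriptions without a test.

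Olfactory and vomeronasal receptors together gave 1273 members, or 20.6% of all. Olfactory receptors, which detect odours in the nasal epithelium, gave 974 members of 1127 genes (86.4%). Type 1 vomeronasal receptors, which detect pheromones, gave 183 of 208 (88.0%), and type 2 gave 116 of 121 (95.9%). Beside these, taste receptors gave 34 of 38 (89.5%). None of the 974 olfactory members had a CpG-rich promoter. Of the 153 olfactory receptors that were not members, 118 had a promoter peak in a single list, and for 85 of them that list was H3K27ac replicate 1. Where a promoter had to be covered in at least 2 of 3 replicates of a mark, 98.0% of olfactory receptors were unmarked, as were 8609 of all 20722 genes.

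A few receptor genes stood apart from their families. Olfr433 (chr1:174040705-174044411), and Olfr56 (chr11:48978889-49135387), had a promoter peak in all 6 replicate lists. Olfr432, beside Olfr433, had one in 5, as did Olfr1392 and Olfr1508. Only 29.9% of the 32-base words in the windows of Olfr56 occurred once in the genome, against 96.3% for Olfr433. Among type 1 vomeronasal receptors Vmn1r4 had a peak in all 6 replicate lists, and Vmn1r199, Vmn1r235, Vmn1r202 and Vmn1r21 had peaks in 4, 3, 2 and 2. These olfactory and type 1 receptors had 2 to 4 starts each, and a peak at any start counted. The 5 type 2 receptors that were not members, Vmn2r6, Vmn2r17, Vmn2r70, Vmn2r79 and Vmn2r84, each had a peak in H3K27ac replicate 1 and in no other list.

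Families of surface epithelia and their secretions were largely members. Keratins, the intermediate filaments of epithelia and hair, gave 43 of 53 (81.1%), keratin-associated proteins of hair 45 of 57 (78.9%), and the late cornified envelope and small proline-rich proteins of the skin barrier 26 of 36 (72.2%). Defensins, antimicrobial peptides of epithelia, gave 60 of 64 (93.8%), kallikreins 25 of 26 (96.2%) and secretoglobins 31 of 34 (91.2%). Among genes with at least 90% unique words, members were 23 of 27 defensins, 10 of 11 kallikreins and 6 of 8 secretoglobins. There they were 12 of 21 late cornified envelope and small proline-rich genes, and 22.5% of all such genes. All 22 major urinary proteins, pheromone carriers made in liver, were members, but none of the 22 had windows with at least 90% unique words, and their median was 9.44%. Proteins of the carcinoembryonic antigen family and the pregnancy-specific glycoproteins of the placenta gave 21 of 28 (75%), and the prolactin family of placental hormones 10 of 25 (40.0%).

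Families of drug and steroid metabolism and of protease inhibitors varied. Cytochromes P450 of families that handle drugs, steroids and fatty acids gave 62 of 81 (76.5%), sulfotransferases 13 of 21 (61.9%) and serpins, inhibitors of proteases, 36 of 60 (60.0%). UDP-glucuronosyltransferases, which conjugate drugs and steroids, gave 8 of 19 (42.1%). Among genes with at least 90% unique words members were 24 of 40 P450 genes, 5 of 10 sulfotransferases and 16 of 33 serpins, where the share over all genes of that kind was 22.5%. Of the 19 P450 genes that were not members 6 had peaks in all 6 replicate lists, among them Cyp2d22, Cyp2j6, Cyp2j9, Cyp2r1 and Cyp4f17. Immune families were mixed. Interleukins gave 20 of 37 (54.1%) and killer cell lectin-like receptors 12 of 26 (46.2%), whereas chemokines gave 9 of 36 (25%) and C-type lectins 6 of 30, under the share of all genes.

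Families of ion channels, neurotransmitter receptors and clustered protocadherins were mixed in their promoter sequence. Potassium channels and their accessory proteins gave 40 of 92 (43.5%), voltage-gated sodium and calcium channels 18 of 39 (46.2%) and glutamate receptor subunits 14 of 26 (53.8%). CpG-rich promoters were found in 26 of these 40, 8 of the 18 and 9 of the 14 members, but in 4 of 13 nicotinic receptor subunits, 2 of 9 GABA and glycine receptor subunits, 1 of 4 serotonin receptors and 2 of 5 dopamine and muscarinic receptors that were members. Of the 57 clustered protocadherins, cell surface proteins by which neurons tell self from other, 50 were members (87.7%) and 15 of these 50 were CpG-rich. Solute carriers, membrane transporters used by all tissues, gave 113 of 358 (31.6%), close to the share of all genes, and 77 of the 358 had a peak in all 8 lists.

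At the other end were families with a small share of members. Mitochondrial ribosomal proteins gave 0 members of 78 genes, and proteasome subunits 1 of 39. Ribosomal proteins gave 9 of 92 (9.78%), histones 6 of 70 (8.57%) and zinc finger proteins of the Zfp series 42 of 385 (10.9%). Windows that are hard to assign to a single place in the genome made up most of these. Among genes with at least 90% unique words, of which 22.5% were members, these were 3 of 52 ribosomal proteins, 0 of 13 histones and 10 of 264 Zfp genes. The 6 histone members all had a peak within 25 kb in all 6 replicate lists, and their starts lay 1.7 to 4.70 kb from the nearest peak.

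**Figure D2:**
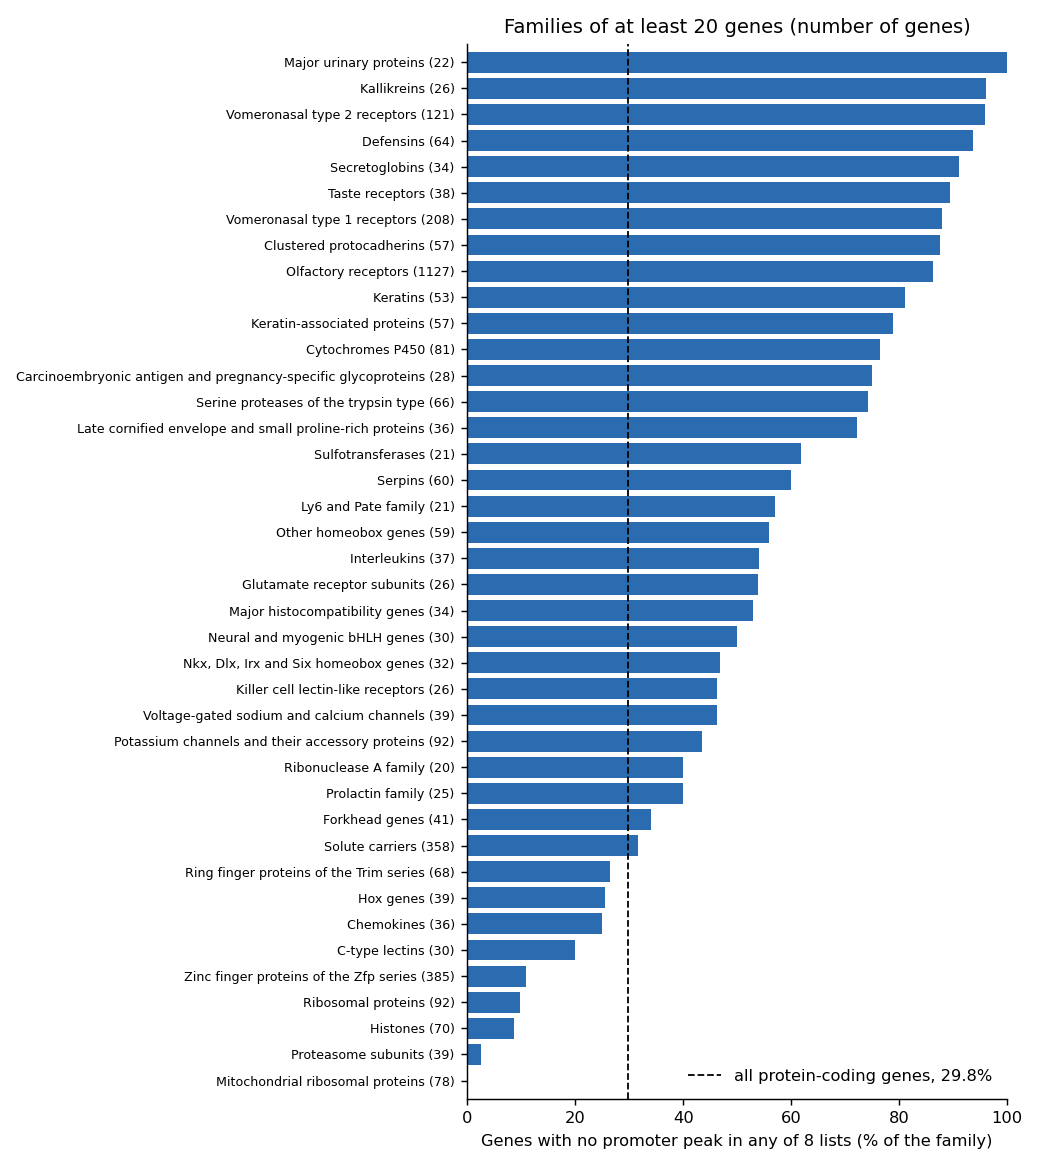
Share of genes with no promoter peak in any of 8 lists (x axis, percent of the family) for the 40 families of at least 20 genes on chromosomes 1 to 19, with the number of genes in brackets. The dashed line is the 29.8% of all protein-coding genes. Major urinary proteins, kallikreins, type 2 vomeronasal receptors and defensins stand highest, and mitochondrial ribosomal proteins are at 0.

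Transcription factors of development were among the members. Of 260 genes in the factor families 109 were members (41.9%), beside 29.8% of all genes. The families differed, from 0 of 5 Gata genes, 10 of 39 Hox genes (25.6%) and 5 of 18 Sox genes (27.8%), under the share of all genes, through 14 of 41 forkhead genes (34.1%) to 15 of 30 neural or myogenic bHLH genes and 6 of 9 Pax genes. In all, 81 of these 109 had CpG-rich promoters, against 13.0% of all members. The factor families had median CpG ratios of 0.877 to 1.01 over all their genes, members or not. These 81 were 10.1% of the 802 CpG-rich members. Of the 802, 88 were predicted models and 522 were neither predicted models nor in a family pattern. The 81 included 8 Hox genes, 5 Pax genes, 5 Sox genes, 10 forkhead genes, 5 LIM homeobox genes and 8 neural or myogenic bHLH genes, and homeobox factors of other families made up most of the rest. Their starts lay 1.02 to 104 kb from the nearest peak, with a median of 9.71 kb. In 10 of the 81 there was a peak within 25 kb in all 6 replicate lists and in 16 there was none in any replicate list, where over all members these shares were 27.4% and 22.9%.

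Myod1 (chr7:46376474-46379099), the master regulator of skeletal muscle, lay farthest, 104 kb from any peak. Hoxb8 (chr11:96281905-96285315) lay 1.52 kb from a peak, and peaks covered 7008, 10060 and 9993 bp of its gene body and 25 kb flanks in H3K27ac replicates 1, 2 and 3, and 2835, 791 and 1529 bp in H3K4me1 replicates 1, 2 and 3. All 6 lists marked that neighbourhood, with more H3K27ac than H3K4me1 in each. Sox18 (chr2:181669836-181671640), a factor of blood and lymph vessels, had its nearest peak at 1.22 kb, with 6051, 3490 and 2782 bp of H3K27ac and 2600, 1886 and 1953 bp of H3K4me1 in the same order. Foxf1 (chr8:121084386-121088144), a factor of visceral smooth muscle development, had 713, 500 and 1077 bp of H3K27ac within 25 kb and 0 bp of H3K4me1 in all 3 replicates. Its nearest peak was 23.0 kb from a start.

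Marker genes of other tissues were found on both sides. All 10 skeletal and heart muscle markers were members, beside 0 of 12 smooth muscle markers. They were Myod1, Myf5 and Myog, which set the skeletal muscle fate, Ckm, the actins Acta1 and Actc1, the heart myosins Myh6 and Myh7, and the troponins Tnnt2 and Tnni3. Only Myod1 was CpG-rich, and 4 of the 10, Myf5, Ckm, Actc1 and Tnni3, had a peak within 25 kb in all 6 replicate lists. Around Actc1 (chr2:114047282-114053548) peaks covered 575, 1549 and 703 bp in the H3K27ac replicates and 2904, 3734 and 1826 bp in the H3K4me1 replicates, and none of it was in the gene body. H3K4me1 covered more than H3K27ac in each list.

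Blood, liver, neuron and germ cell markers were members more often than not. Of 6 blood cell markers 5 were members, namely C1qa, Cd3e, Cd79a, Csf1r and Itgam, and only Ptprc had promoter peaks. Csf1r, the receptor of the macrophage growth factor, had peaks in its gene body in 5 of the 6 replicate lists, with 603, 0 and 291 bp of H3K27ac and 1159, 1014 and 347 bp of H3K4me1. Of 6 liver markers 5 were members, Afp, Ahsg, Apoa1, Cyp2e1 and Serpina1a, and Apoa1 and Serpina1a had no peak within 25 kb in any replicate list. Of 7 neuron markers the members were Gad1, Neurod1, Rbfox3 and Slc17a7. Of 8 germ cell markers they were Ddx4, Prm1, Stra8, Tnp1 and Zp3. Ddx4, an RNA helicase of germ cells, had peaks in its body in all 6 replicate lists, which covered 5756, 1615 and 2804 bp for H3K27ac and 274, 1902 and 2440 bp for H3K4me1.

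For epithelial markers and prostaglandin genes the count depended on the setting. Epcam, an adhesion protein of epithelia, was the only member among 8 oviduct epithelial markers, and 3 of the others, Cdh1, Krt18 and Pax8, had a promoter peak in a single list. None of the 8 had one in all 8 lists, and 62.5% of them were unmarked when a promoter had to be covered in at least 2 of 3 replicates of a mark, the setting that left 8609 of 20722 genes unmarked. At that setting 31.8% of prostaglandin genes and 16.7% of smooth muscle markers were unmarked. The 9 stromal and 4 endothelial markers held 0 members. Among 22 prostaglandin genes 2 were members, Ptgds, a prostaglandin D synthase, and Ptgdr, the receptor of its product. Neither had a peak in the gene body, and both had peaks within 25 kb in 5 replicate lists. Peaks around Ptgds covered 1283, 945 and 832 bp for H3K27ac and 1243, 0 and 294 bp for H3K4me1.

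Pituitary and other peptide hormones gave 19 members of 32 genes (59.4%), beside 29.8% of all genes. They included the pituitary hormones Gh, Tshb, Lhb, Cga and Pomc, the islet hormones Ins1, Gcg, Sst, Ppy and Iapp, the hypothalamic peptides Avp, Hcrt, Trh and Gnrh1, and the gut or nerve peptides Ghrl, Gip, Nts, Vip and Gal. All 19 lay within 24.9 kb of a peak, where 75% of all members lay within 26.7 kb. Of the 19, 8 had a peak within 25 kb in all 6 replicate lists, beside 27.4% of all members. Cga, whose CpG-free promoter is printed above, lay 1.22 kb from its nearest peak. Its surroundings were covered over 10093, 8590 and 5073 bp by H3K27ac and 12442, 10830 and 10333 bp by H3K4me1. H3K4me1 covered more than H3K27ac in each replicate. Ghrl, the gene of the stomach hormone ghrelin, had 8770, 6047 and 12564 bp of H3K27ac and 6586, 6510 and 8802 bp of H3K4me1, whereas Ins1 had 695 bp in H3K27ac replicate 3 and 0 bp in the other 5 replicate lists.

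Members lay side by side along the chromosomes. A run was a series of neighbouring protein-coding genes that were all members. Of the 6179 members 71.5% had a member as a neighbour, 2581 (41.8%) lay in 229 runs of at least 5, and 1674 (27.1%) in 86 runs of at least 10. Olfactory and vomeronasal receptors made up 43.5% of the members in runs of at least 10. The share of members by chromosome went from 21.2% on chromosome 3 to 43.8% on chromosome 7, which held 206 of the olfactory members. Chromosome 2 held 264 of them and chromosome 14, at 41.9%, held 34.

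The longest run held 106 members over 4126250 bp of chromosome 7 (chr7:19937305-24063554), from Igsf23, an immunoglobulin superfamily gene, to Vmn1r183. It contained 65 type 1 vomeronasal receptors and 35 predicted models. Peaks of any list covered 0.254% of it. H3K27ac replicates 1, 2 and 3 had 15, 3 and 2 peaks in it, and H3K4me1 replicates 1, 2 and 3 had 3, 1 and 0. The second run, of 62 members on chromosome 14 (chr14:4165030-6973818) from Gm3127 to Gm6356, was made of predicted models throughout and held no peak in any list. The third was the defensin cluster of chromosome 8 (chr8:19140778-21974041) from Gm45826 to Ccdc70, with 40 defensins among 57 members and 34, 15 and 19 H3K27ac and 7, 11 and 8 H3K4me1 peaks. The fourth, from Gm2832 to Ear10 on chromosome 14, had 55 members, of which 51 were predicted models. The fifth, on chromosome 10 (chr10:128958274-129804396), ran from Mettl7b to Olfr811 and held 44 olfactory receptors among its 45 members.

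In most of these runs few words of the windows occurred once in the genome. The median share of unique 32-base words in the promoter windows was 1.50% in the longest run, 4.72% in the second, 30.5% in the third and 8.12% in the fourth, but 88.0% in the olfactory run on chromosome 10. Over all members the median was 94.5%, and 61.7% of them reached 90%, beside 81.6% of all genes and 91.9% of genes with a peak in all 8 lists. The share of members was 88.8% among the 1060 genes under 50%, and fell to 19.5% among the 7956 genes with at least 99%. In windows with few unique words, an unmarked promoter and one whose reads could not be placed cannot be told apart in these lists. With only genes of at least 90% there were 3814 members, or 22.5% of such genes, 84.4% of olfactory receptors were members, and 25.4% of members lay in runs of at least 5.

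The nearest peak of any list was at a median of 9.95 kb from a member's start, with a 10th percentile of 1.93 kb and a 90th percentile of 78.6 kb. By definition the genes beside a member in a run had no promoter peak, whereas a member alone had neighbours with one, so the distances by run length are partly set by how runs were drawn. Members with no member beside them had a median of 5.42 kb, those in runs of at least 5 had 23.5 kb, and those in such runs with at least 90% unique words had 13.5 kb. A peak lay over 100 kb away for 518 members (8.38%). The 10 named members farthest from any peak all lay on chromosome 7. Vmn1r127 to Vmn1r132, Vmn1r135, Vmn1r137 and Vmn1r138 were in the longest run, 1272 to 1567 kb from a peak, and at most 17.5% of the words in their windows were unique. The other was Vmn2r40, at 1272 kb and 1.62%.

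**Figure D3:**
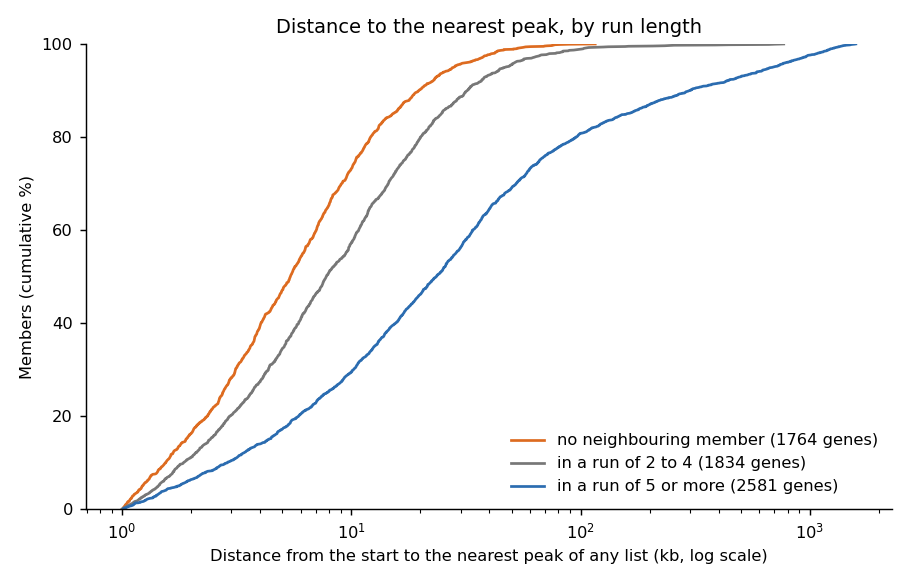
Cumulative percentage of members (y axis) by distance from a start to the nearest peak of any list (x axis, kb, log scale), for 1764 members with no neighbouring member, 1834 in runs of 2 to 4 and 2581 in runs of at least 5. The curves shift to the right with run length, which is partly set by how runs were drawn, from a median of 5.42 to 7.78 and 23.5 kb.

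With all 8 lists, most members had a mark elsewhere in the gene or close by. A peak of at least 1 list fell in the gene body, outside the promoter windows, in 1871 members (30.3%), beside 71.5% of all genes. This gap is partly set by the rule. A promoter peak can run past the window into the gene body, and members have no promoter peak. The members' genes were also shorter, with a median of 8094 bp against 17596 bp over all genes. For 2936 members (47.5%) the only peaks were in the 25 kb flanks, and for 1372 (22.2%) there was no peak in the body or within 25 kb, beside 7.04% of all genes. The share was 10.5% for members with at least 90% unique words, 46.4% with the 2 pooled lists, 49.1% with peaks of −log10 p of at least 1.3 and 43.9% with coverage in at least 2 of 3 replicates. It was 44.7% in runs of at least 5 and 2.55% for members with no neighbouring member, which the definition of a run partly sets. Type 1 vomeronasal receptors lacked one in 96 of 183 members, olfactory receptors in 319 of 974 and clustered protocadherins in 4 of 50. In CpG-rich members 47.0% had a peak in the body, against 27.8% of the others, and their genes were longer, with medians of 23002 and 7434 bp.

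The surroundings of some members reached the marked promoter of another gene. In 1695 members (27.4%) all 6 replicate lists had a peak in the body or within 25 kb, beside 82.7% of the other genes and 48.5% of genes with a promoter peak in exactly 1 list. The promoter window of a gene with peaks in all 8 lists lay within that distance of 11.7% of all members and 33.0% of genes that were not members. It did so for 39.1% of the 1695, but such a promoter can itself supply the peaks that put a member among them. In the gene body alone 296 members (4.79%) had a peak in all 6 replicate lists, beside 47.6% of the other genes. In 4384 members (70.9%) no replicate list had one there, beside 12.8% of the other genes. These gaps are partly set by the rule, since a gene's own promoter peak can run past its window, and members have none. The members' genes were also shorter, with a median of 8094 bp against 23602 bp in the other genes.

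List by list, a peak in the body or within 25 kb was found for 64.1%, 48.3% and 47.2% of members in H3K27ac replicates 1, 2 and 3, and for 50.3%, 43.0% and 42.2% in H3K4me1 replicates 1, 2 and 3. H3K27ac replicate 1 was the highest, and 734 members (11.9%) had such a peak in that list alone. Without it 34.1% of members had no peak in the body or within 25 kb. H3K27ac had a mean of 53.2% ± 9.5 (SD, n = 3). The H3K4me1 mean was 45.2% ± 4.44 (SD, n = 3), and the marks differed by 8.01 percentage points (exact permutation test, two-sided, p = 0.3, adjusted p = 0.450 over 3 measures). The difference was 2.54 without H3K27ac replicate 1, 6.53 to 11.0 without any other replicate, and 4.28 when peaks at promoters were left out. The groups overlapped, and with 3 against 3 the smallest p is 0.1.

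In the gene body the shares were 18%, 12.7% and 12.4% for H3K27ac and 15.8%, 11.5% and 12.0% for H3K4me1. The means of 14.4% ± 3.20 and 13.1% ± 2.32 (SD, n = 3) differed by less than the spread between replicates, by 1.25 percentage points (exact permutation test, two-sided, p = 0.5, adjusted p = 0.5). Without H3K27ac replicate 1 the sign turned, at -0.599, and without H3K4me1 replicate 2 or 3 the difference was 0.461 or 0.696.

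Coverage around members was lower than over the autosomes in every list, and the ratio was higher for H3K27ac than for H3K4me1. The same held for genes with a promoter peak in exactly 1 list. Their ratios were 0.643, 0.629 and 0.618 in H3K27ac replicates 1, 2 and 3. In H3K4me1 replicates 1, 2 and 3 they were 0.545, 0.497 and 0.512. Covered bases and lengths of the members' bodies and 25 kb flanks were summed by gene, so sequence shared by neighbours counted repeatedly. The resulting covered share of the members was 0.444, 0.473 and 0.472 of that of the autosomes in H3K27ac replicates 1, 2 and 3. In H3K4me1 replicates 1, 2 and 3 it was 0.390, 0.352 and 0.348. The means were 0.463 ± 0.0166 and 0.363 ± 0.0231 (SD, n = 3), all 3 H3K27ac values lay above all 3 H3K4me1 values, and the difference of 0.0997 had the smallest p the design allows (exact permutation test, two-sided, p = 0.100, adjusted p = 0.3). When peaks that touched the promoter of any protein-coding gene were left out, the difference fell to 0.0267 and p was 0.200. With only peaks of −log10 p of at least 1.3 it was 0.337. These ratios, and so the tested difference, are partly set by the choice of members. The flanks hold windows of neighbouring members that the rule emptied, while the autosomes include marked promoters.

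**Figure D4:**
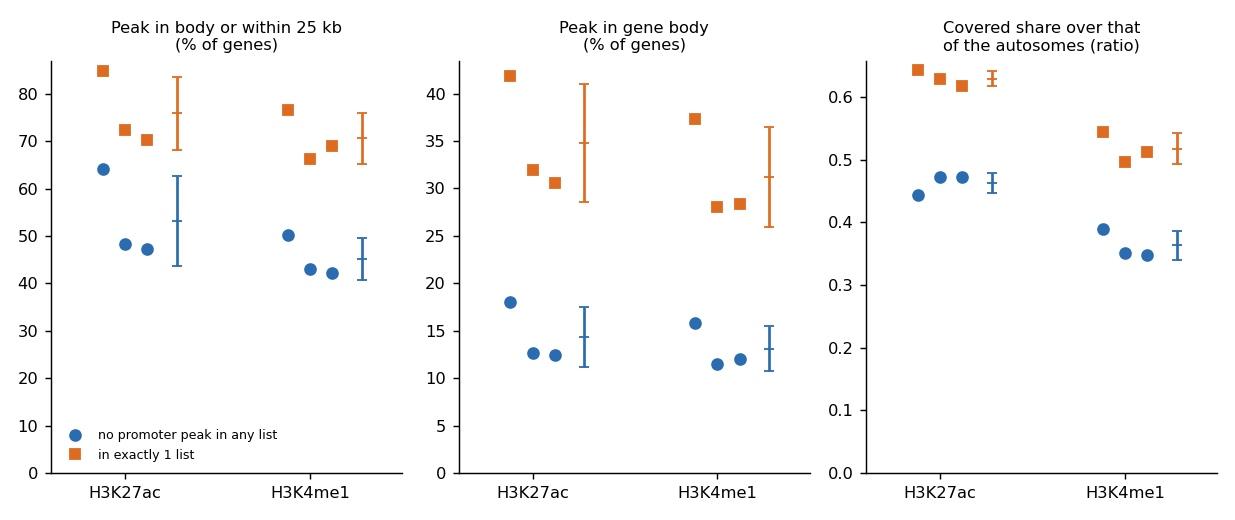
Share of genes with a peak in the body or within 25 kb (left, percent), share with a peak in the body (middle, percent) and covered share of the surroundings over that of the autosomes (right, ratio) in each replicate list, for the 6179 members (circles) and the 1216 genes with a promoter peak in exactly 1 list (squares). Points are replicates 1, 2 and 3 from left to right, and bars are mean and SD of the 3. In the members the ratio is 0.444 to 0.473 for H3K27ac and 0.348 to 0.390 for H3K4me1.

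Coverage by distance from the start was also partly set by the choice of members, since 71.5% of them had a member as a neighbour, whose windows were empty by the same rule, while the autosomes include marked promoters. In bins of 1 kb at 5 kb on either side of the most upstream start, the covered share of the members was 0.321 ± 0.0203 of the share of the autosomes for H3K27ac and 0.215 ± 0.0211 for H3K4me1 (mean ± SD, n = 3). At 25 kb it was 0.582 ± 0.0501 and 0.406 ± 0.0168, and at 100 kb it was 0.897 ± 0.0580 and 0.741 ± 0.0223. At each of these distances all 3 H3K27ac lists lay above all 3 H3K4me1 lists. Genes with a promoter peak in exactly 1 list were at 0.980 ± 0.0202 and 0.733 ± 0.0581 at 25 kb, and genes with a peak in all 8 lists at 2.08 ± 0.204 and 1.88 ± 0.00474.

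**Figure D5:**
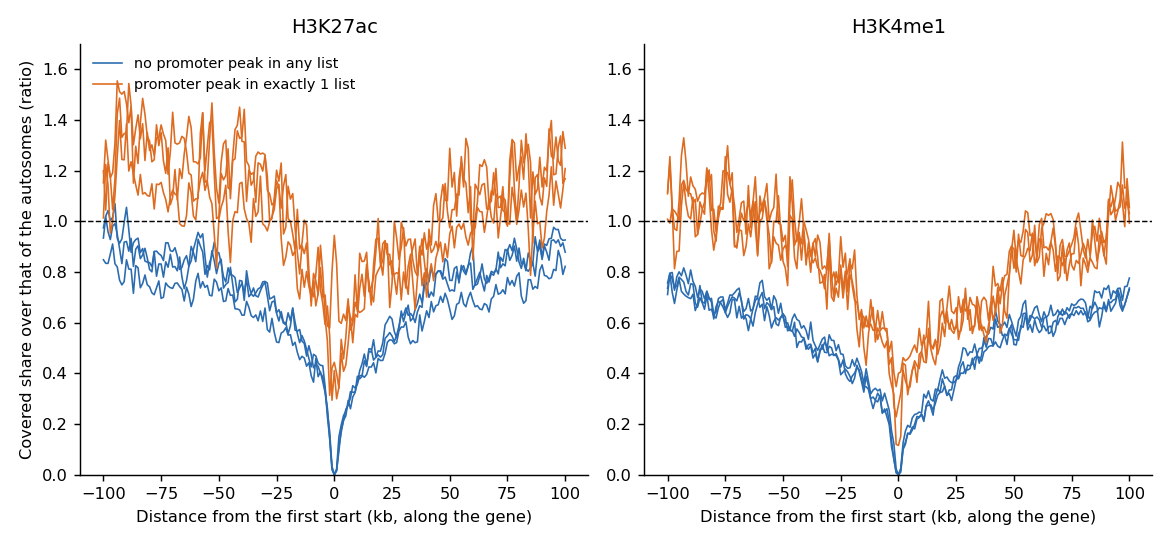
Covered share of 1 kb bins over the covered share of the autosomes (y axis, ratio) by distance from the most upstream start along the gene (x axis, kb), for H3K27ac (left) and H3K4me1 (right), with 1 line per replicate list and a dashed line at the level of the autosomes. The members start from 0 at the start site, as chosen, and climb to 0.836 to 0.951 for H3K27ac and 0.724 to 0.767 for H3K4me1 at 100 kb, below the genes with a promoter peak in exactly 1 list.

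The peaks around members had a fold enrichment close to that of all peaks in the same lists. Their median fold enrichment, the authors' ratio of pileup to local background, was 1.44 to 1.56 in the 3 H3K27ac lists and 1.6 to 1.65 in the H3K4me1 lists, against 1.44 to 1.53 and 1.59 to 1.62 over all autosomal peaks. Their median pileup was 1.20 to 1.31 and 1.39 to 1.58 scaled fragments, against 1.19 to 1.24 and 1.32 to 1.40. Their median −log10 p, averaged over a peak, was 1.01 to 1.14 and 1.12 to 1.16, the same as over all autosomal peaks and below the 1.3 of a p of 0.05. Peaks at promoters of genes marked in exactly 1 list were weaker, with a median pileup of 1.13 to 1.16 and 1.18 to 1.23 fragments and a median length of 337 to 442 and 315 to 429 bp. At promoters marked in all 8 lists the medians were 2.41 to 2.81 and 1.84 to 1.95 fragments and 1893 to 2227 and 1234 to 1386 bp.

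A small set of members carried both marks well inside the gene. Sequence covered by both marks in at least 2 of 3 replicates each, and outside every promoter window, was sought in gene bodies. It was found in 261 members (4.22%), beside 34.9% of all genes. That gap is also partly set by the rule, since a gene's own promoter peak can run past its window, and members have none. Med12l (chr3:59005825-59318682), which encodes a Mediator subunit, had the most, 19642 bp. Its body was covered over 41042, 52636 and 37281 bp by H3K27ac and 55246, 61963 and 52379 bp by H3K4me1 in replicates 1, 2 and 3, so H3K4me1 covered more in every replicate. The nearest peak to one of its own 3 starts was 16255 bp away. Its 313 kb also held P2ry12, P2ry13 and P2ry14, which encode receptors of purines or nucleotide sugars, and these had promoter peaks, P2ry12 and P2ry14 in all 8 lists and P2ry13 in 1.

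Fmnl2 (chr2:52857860-53133804), whose CpG-dense promoter is printed above, had 6452 bp under both marks and overlapped no other protein-coding gene. H3K27ac covered 8.50%, 5.51% and 8.65% of its body and H3K4me1 18.1%, 16.9% and 23.6%, and the nearest peak stood 2094 bp from a start. Smyd1 (chr6:71213940-71322233), a methyltransferase of skeletal and heart muscle, had 5435 bp and overlapped Krcc1, which had a promoter peak in all 8 lists. Lipc (chr9:70798128-70952226), the hepatic lipase, had 5402 bp, with 4180, 9904 and 6626 bp of H3K27ac and 12419, 15537 and 9112 bp of H3K4me1 in its body. The next places went to genes of the gamma protocadherin cluster. There 14 members, among them Pcdhga1, Pcdhga3, Pcdhga4 and Pcdhga10 to Pcdhga12, shared the same 4808 bp, since their bodies end at the same base. They count as 1 stretch of sequence, and the cluster's genes Pcdhgc3, Pcdhgc4 and Pcdhgc5 had promoter peaks in 8, 6 and 1 lists.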

How the data were processed

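Per the labels, H3K27ac, H3K4me1 and IgG were assayed in 3 samples each. The submitters' processing notes name cutadapt, Bowtie2, MACS2 and build GRCm38.p5. Per the file headers, the authors called broad peaks with MACS 2.2.7.1 from alignment files marked as unique and free of duplicates, with p-value cutoffs of 0.05 and 0.1 and the larger library scaled to the smaller. The deposited pileup is a coverage signal in scaled fragments, averaged over a peak. The deposited fold enrichment is a ratio of pileup to local background, and the deposited p-value is given as −log10. No values of the authors were changed, and the IgG libraries had no list.

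Starts were those of protein-coding transcripts in GENCODE mouse release 21, and 85 genes without one were left out. Peaks ended within the chromosome lengths of GRCm38. Any overlap of at least 1 bp counted. Bodies and 25 kb flanks exclude a gene's own windows. Uniqueness is the share of 32-base words, on either strand, found once in the genome. In all, 3 measures with 1 value per replicate list were compared by an exact permutation test over 20 assignments, two-sided, with Benjamini-Hochberg adjustment, and all other shares are descriptions. Where the labels do not name separate animals, p-values measure only the spread between samples, which may be technical. Precision is limited by 3 lists per mark.

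The members, families and gene lists were chosen with earlier results of these data known. Named were members of the marker lists, exceptions in the 5 families with most members and the ends of the 5 longest runs. Further named were the 10 members farthest from a peak, the 10 with most sequence under both marks, those at the edge of the window and CpG-rich transcription factors. Predicted models were only counted, except where they were the ends of runs. Sequences came from the 2 highest and 2 lowest CpG ratios among these, with Olfr770 and Ckm chosen after their values were seen. The study text at hand does not describe these H3K27ac and H3K4me1 samples and lent only its style. Interval and word code was tested on simulated data. Calculations used Python 3.11.15, numpy 2.4.6, pandas 2.3.3 and numba 0.67.0.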

Additional observations from a re-analysis of the deposited data

How the results depend on the processing

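In all, 106 alternatives were computed. The differences between marks, which passed no threshold, were judged by their sign alone, and 2 of their alternatives turned it. The shares and the median were judged by their spread and the count of members by a change of over 1.5 times, and 33 of their alternatives passed these limits. The number of members, 6179, was 3814 with at least 90% unique words, 7311 and 5042 with windows of 250 bp and 3 kb, 7561 with the 2 pooled lists, 8393 with peaks of −log10 p of at least 1.3, 8609 with coverage in at least 2 of 3 replicates, 5111 without predicted models, and 6222 to 6545 when 1 replicate was left out. The share of members with no peak in the body or within 25 kb, 22.2%, became 18.8% and 27.2% with windows of 250 bp and 3 kb, 46.4% with the 2 pooled lists, 49.1% with peaks of −log10 p of at least 1.3, 43.9% with coverage in at least 2 of 3 replicates, 18.3% without predicted models, 10.5% with at least 90% unique words, 37.9% and 13.3% with flanks of 10 and 50 kb, and 24.7% without peaks at promoters. Leaving out 1 replicate gave 22.1% to 33.7%, the highest without H3K27ac replicate 1. In the same order of settings, the share of olfactory receptors that were members, 86.4%, became 92.8% and 74.4% with the windows, 98.7%, 99.2% and 98.0%, and was 86.4% to 94.0% with 1 replicate left out. The share of members in runs of at least 5, 41.8%, became 43.0% and 38.1%, 46.9%, 46.7%, 45.0%, 39.1% without predicted models, 25.4% with at least 90% unique words, and 27.1% for runs of at least 10, with 41.2% to 46.2% when 1 replicate was left out. The CpG-rich share of 13.0% became 19.9% with a CpG ratio over 0.6 and GC over 50%, which 63.7% of all genes met, 14% without predicted models and 17.6% with at least 90% unique words. The median of unique words, 94.5%, was 95.9% without predicted models and also without olfactory and vomeronasal receptors. The causes were not tested.

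Of the differences between marks, H3K27ac minus H3K4me1, with 1 replicate left out the share near members gave 2.54 to 11.0, the share in bodies -0.599 to 2.58 and the coverage ratio 0.0922 to 0.113. Other settings moved them by over 1.5 times without turning the sign. The share near members gave 4.61 with −log10 p of at least 1.3, where the exact permutation p was 0.1, and 4.28 without peaks at promoters. The share in bodies gave 0.192 with at least 90% unique words. The coverage ratio gave 0.0511 with flanks of 10 kb, 0.0267 without peaks at promoters and 0.337 with −log10 p of at least 1.3. The share in bodies turned to -0.599 without H3K27ac replicate 1 and to -0.766 with −log10 p of at least 1.3. With the replicate number as a replicate block the differences were 8.01, 1.25 and 0.0997, each with an exact permutation p of 0.25, the smallest that 3 pairs allow. The labels do not say what a number shares. Deviations from the mark's mean correlated at -0.0176, 0.224 and 0.344 for numbers 1, 2 and 3 across genes, which are not independent replicates, so the numbers were not taken to pair the samples. H3K27ac replicate 2 correlated most, at 0.239, with H3K4me1 replicate 1, which shared its IgG library. A weak mark under the calling threshold is beyond what these lists can show.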
